A study of Rattus norvegicus with 30 samples.

Results

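The immediate early genes were read in the renal cortex (Cx) and outer medulla (OM) of rats fed a low or a high salt diet. They were read by name, from a list of 10 symbols (*Fos*, *Fosb*, *Jun*, *Junb*, *Egr1*, *Egr2*, *Ier2*, *Ier3*, *Nr4a1* and *Dusp1*). No cutoff on level picked them, but the list was drawn up with earlier results of these data known. The count table holds 9 of them among 32545 genes, and the level of *Ier2* was not analysed here. Male Sprague-Dawley rats were fed 0.4% NaCl (LS) or were studied 14 d (HS14) or 21 d (HS21) after the switch to 4.0% NaCl, with 5 rats in each group. The right kidney was the source of both tissues, which makes 6 groups of 5 libraries and 30 libraries in all. Replicates are numbered 1 to 5 on LS, 6 to 10 at HS14 and 11 to 15 at HS21 in both tissues, and no source used here says whether equal numbers are the same rat. The study notes that tissue could only be taken under anesthesia and surgery, which all 6 groups share.

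Immediate early genes are the first genes that a cell switches on when a growth factor, a hormone, calcium or a physical stress reaches it. Their transcription needs no new protein, because the factors that start it (serum response factor with its ternary complex partners, and CREB) already sit in the nucleus and are switched on by phosphorylation. Their mRNAs are short-lived, so that the level in a tissue follows the last minutes to hours before it was frozen. *Fos*, *Fosb*, *Jun* and *Junb* encode subunits of the AP-1 transcription factor, *Egr1* and *Egr2* encode zinc finger transcription factors and *Nr4a1* an orphan nuclear receptor. *Dusp1* encodes a phosphatase that switches MAP kinases off, and *Ier3* a small protein that acts in cell survival.

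The promoters of 4 members are shown because serum response factor and CREB recognize short words of DNA in them. The mRNAs of all 9 members read moved together between libraries, as described below, which does not single out these 4. The sequences are those of RefSeq on the build GRCr8, 250 bases that end just before the annotated start of the gene, and 7 of the 10 symbols matched the RefSeq table. Capitals mark the CArG box, which is the word of serum response factor, and the word TGACG or its reverse complement CGTCA, the core of the CREB site. The full palindrome TGACGTCA holds this core on both strands and overlaps with it.
Egr1, chr18:26736828-26737077, plus strand: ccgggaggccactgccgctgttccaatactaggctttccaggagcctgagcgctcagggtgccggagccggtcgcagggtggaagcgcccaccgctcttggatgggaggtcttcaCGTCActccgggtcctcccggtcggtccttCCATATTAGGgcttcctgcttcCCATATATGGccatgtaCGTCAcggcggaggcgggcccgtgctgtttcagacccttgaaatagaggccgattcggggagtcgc
Egr2, chr20:21054442-21054691, minus strand: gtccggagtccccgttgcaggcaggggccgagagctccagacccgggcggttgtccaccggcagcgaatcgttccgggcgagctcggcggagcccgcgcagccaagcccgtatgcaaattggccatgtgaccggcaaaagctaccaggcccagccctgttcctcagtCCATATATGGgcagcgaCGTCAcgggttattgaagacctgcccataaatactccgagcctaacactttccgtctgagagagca
Nr4a1, chr7:134259888-134260137, plus strand: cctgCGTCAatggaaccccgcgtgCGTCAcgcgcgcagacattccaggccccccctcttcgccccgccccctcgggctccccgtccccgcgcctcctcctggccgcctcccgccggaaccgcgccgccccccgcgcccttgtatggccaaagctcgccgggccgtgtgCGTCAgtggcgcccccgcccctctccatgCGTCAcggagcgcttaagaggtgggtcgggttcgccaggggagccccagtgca
Dusp1, chr10:17184603-17184852, plus strand: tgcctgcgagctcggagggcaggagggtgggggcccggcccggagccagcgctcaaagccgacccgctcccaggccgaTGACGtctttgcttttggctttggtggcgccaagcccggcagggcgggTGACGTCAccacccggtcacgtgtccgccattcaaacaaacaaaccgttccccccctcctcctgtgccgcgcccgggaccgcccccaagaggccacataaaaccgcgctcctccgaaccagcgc
The promoters of *Egr1* and *Egr2* shared the CArG box CCATATATGG at the same place, its first base 83 bases before the start, and in both a CGTCA began 66 bases before the start. *Egr1* had another CArG box 105 bases before the start. The *Nr4a1* promoter held 4 CGTCA words, and that of *Dusp1* held TGACGTCA 124 bases before the start. A CArG box occurred in 2 of the 7 promoters, or 28.6%, and in 1.5% of 33469 RefSeq promoters searched over the same length on both strands. TGACG on either strand occurred in 6 of the 7 (85.7%) and in 18.2% of all promoters, and TGACGTCA in 2 of the 7 (28.6%) and in 1.59% of all. *Fosb* held none of these words in this window, and *Junb* and *Ier2* held TGACG without a CArG box. These matches describe the letters only. Binding was not measured.

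Libraries held 5408126 to 21842843 counts on genes, the fewest in OM HS14 replicate 10 and the next fewest 12748841. By the study's quality records, OM HS14 replicate 10 also had the lowest share of mapped reads and of bases on exons of the 30 libraries. In these records every OM LS library had a lower exon share and a higher intron share than every Cx LS library. OM HS14 replicates 6 to 9 and OM HS21 replicates 13 to 15 had a higher exon share than every OM LS library. OM HS21 replicates 11 and 12 lay within the OM LS range. The part of these shares in the levels was not tested. Levels are given in CPM, the count relative to a library size corrected by edgeR's TMM factor, and differences as log2 ratios with their SE. A gene was called where the *P* of edgeR's quasi-likelihood F-test, adjusted over all genes tested, was under 0.05. The tissues held the markers of their segments. The summed level of the thick ascending limb genes *Umod* and *Slc12a1* was 9744 to 20705 CPM in the OM libraries and 1148 to 2759 in the Cx libraries. OM LS replicate 2 stood apart, with 10277 CPM of 4 proximal tubule markers against 479.9 to 4484 in the other 14 OM libraries, and 353.8 CPM of *Slc12a3* and *Pvalb*, the distal convoluted tubule markers, against 8.61 to 50.6. Results that rest on it are given with and without it. Fewer cells of a type and less RNA per cell cannot be told apart in bulk tissue.

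Per kilobase of gene length, *Jun* (median 47.7 CPM per kb) and *Junb* (35.8) had the highest median levels in the 15 Cx libraries, followed by *Ier3* (23.2), *Dusp1* (18.3), *Nr4a1* (7.75), *Egr1* (6.55) and *Fos* (4.3). *Fosb* (0.335) and *Egr2* (0.213) were lowest. In the OM *Jun* (55.5) and *Junb* (36.0) were again first, with *Dusp1* (30.9) and *Egr1* (22.02) next. The range over the OM libraries was wide for some genes, from 3.37 to 207.6 CPM per kb for *Egr1* and from 32.8 to 136.5 for *Jun*.

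**Figure D1:**
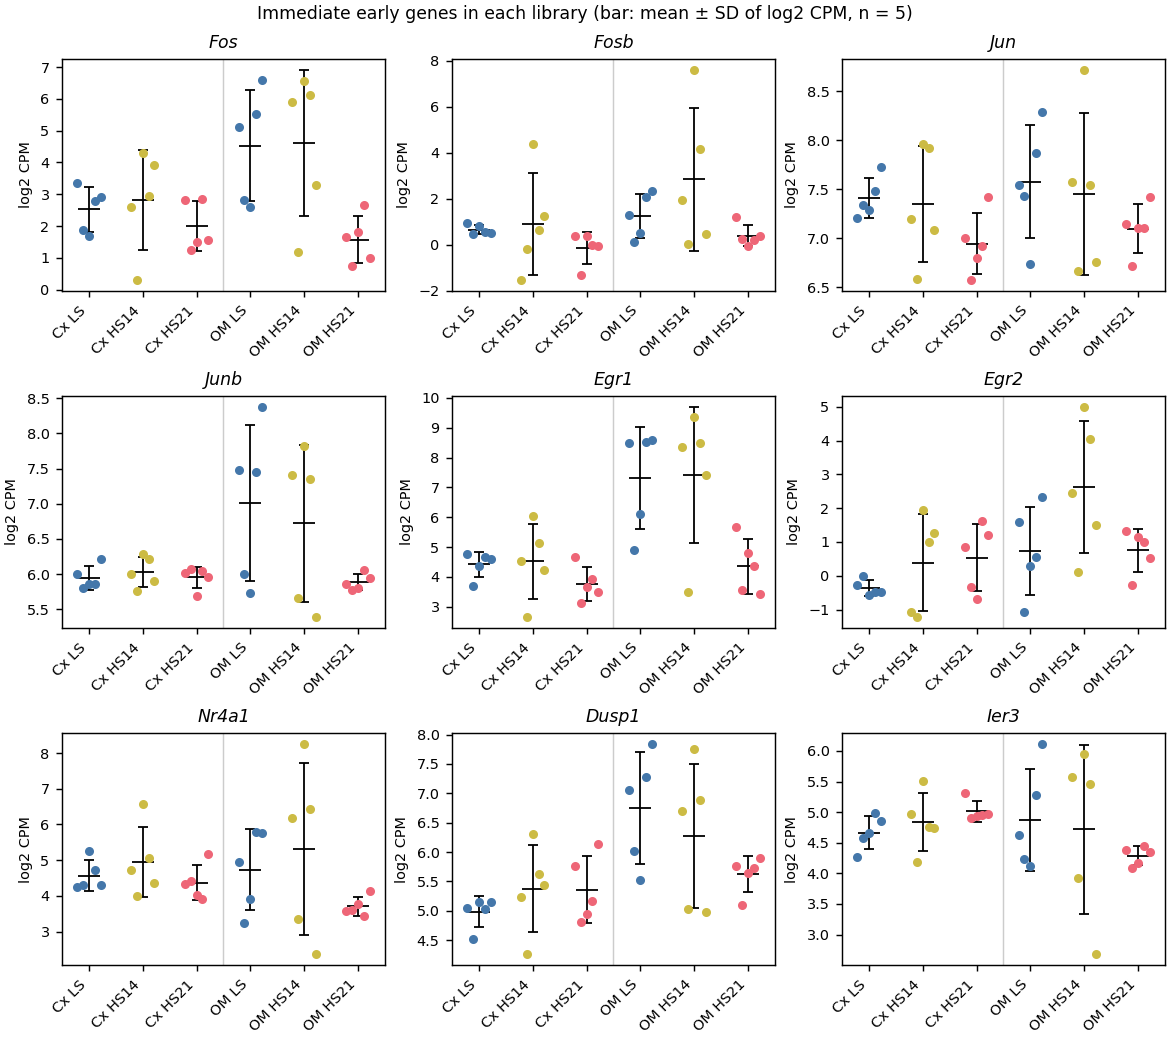
Level of each gene in log2 CPM (vertical axes) in the 6 groups of 5 libraries, with the mean and SD as bars. For *Egr1*, *Fos*, *Junb* and *Dusp1* the OM LS and OM HS14 libraries spread widely, while the 5 OM HS21 libraries spread less and lie near the Cx level.

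On the LS diet, the OM carried more immediate early mRNA than the Cx in 5 of the 9 genes. Both tissues came from the same 5 rats, and this fit had no term for the rat, so it took the libraries as independent. *Egr1*, *Dusp1*, *Fos*, *Junb* and *Egr2* were called higher in OM, and no member was called lower. *Egr2* did not pass the filter on low counts in the Cx comparisons with LS. It was tested here largely through the OM libraries, where it was higher, so its call adds no support to the count of 5. Over all 14295 genes tested, 21.3% were called higher in OM, 19.5% were called lower and 40.9% were called in either direction, so that calls between the tissues are common. The 9 members had a median log2 ratio of 1.37, against 0.029 over all genes. The median of all genes moved to 0.27 when libraries were scaled by their totals, with 5546 genes higher and 1842 lower in place of 3051 and 2794, and the 5 members were called under that scaling too.

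*Egr1*, which encodes a zinc finger factor induced through the ternary complex, differed most. In Cx LS its level was 27.1, 12.8, 20.5, 25.3 and 24.0 CPM in replicates 1 to 5. In OM LS it was 358, 29.8, 68.9, 367 and 388 CPM. The lowest OM library exceeded the highest Cx library, and replicates 2 and 3 stayed far below the other three OM libraries. The log2 ratio was 3.45 ± 0.66 (SE, n = 5 and 5, adjusted *P* = 0.00205), or 10.96-fold. *Dusp1*, the MAP kinase phosphatase, was the other gene without overlap. It had 33.0, 22.7, 35.5, 32.7 and 35.4 CPM in Cx LS. In OM LS it had 133, 64.6, 45.9, 156 and 230 CPM, again with replicates 2 and 3 lowest. Its log2 ratio was 1.97 ± 0.39 (adjusted *P* = 0.00242). Thus the groups did not overlap in 2 of 9 members, where 13.1% of 15501 genes were higher in OM without overlap.

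*Fos*, the AP-1 subunit that is nearly silent in resting cells, had 10.2, 3.53, 3.08, 6.84 and 7.32 CPM in Cx LS. In OM LS it had 34.8, 6.92, 5.92, 45.6 and 95.6 CPM, and OM replicates 2 and 3 lay within the Cx range. The log2 ratio was 2.59 ± 0.73 (adjusted *P* = 0.0169). *Junb*, whose product pairs with FOS proteins, had 55.6 to 73.9 CPM in Cx LS and 53.0 to 333 CPM in OM LS, with a log2 ratio of 1.37 ± 0.43 (adjusted *P* = 0.0285). *Egr2* was close to the limit of detection in Cx LS, with 7 to 11 counts a library, and had 0.342 to 4.88 CPM in OM LS, with a log2 ratio of 1.68 ± 0.58 (adjusted *P* = 0.0391). The calls of *Junb* and *Egr2* were the fragile ones. Leaving out single libraries moved their adjusted *P* to at most 0.0656 and 0.0884. With a replicate block, which pairs Cx and OM libraries of 1 number, edgeR gave them an adjusted *P* of 0.0645 and 0.116. The number of members called was 3 to 6 with 1 library left out. Without OM LS replicate 2 it was 6, as *Fosb* (log2 ratio 1.08, adjusted *P* = 0.0286) was called as well, and over its 15 alternatives the adjusted *P* of *Fosb* ranged from 0.0286 to 0.279. *Fosb* (0.89 ± 0.42), *Nr4a1* (0.42 ± 0.45), *Ier3* (0.39 ± 0.36) and *Jun* (0.23 ± 0.24) were not called with all libraries.

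**Figure D2:**
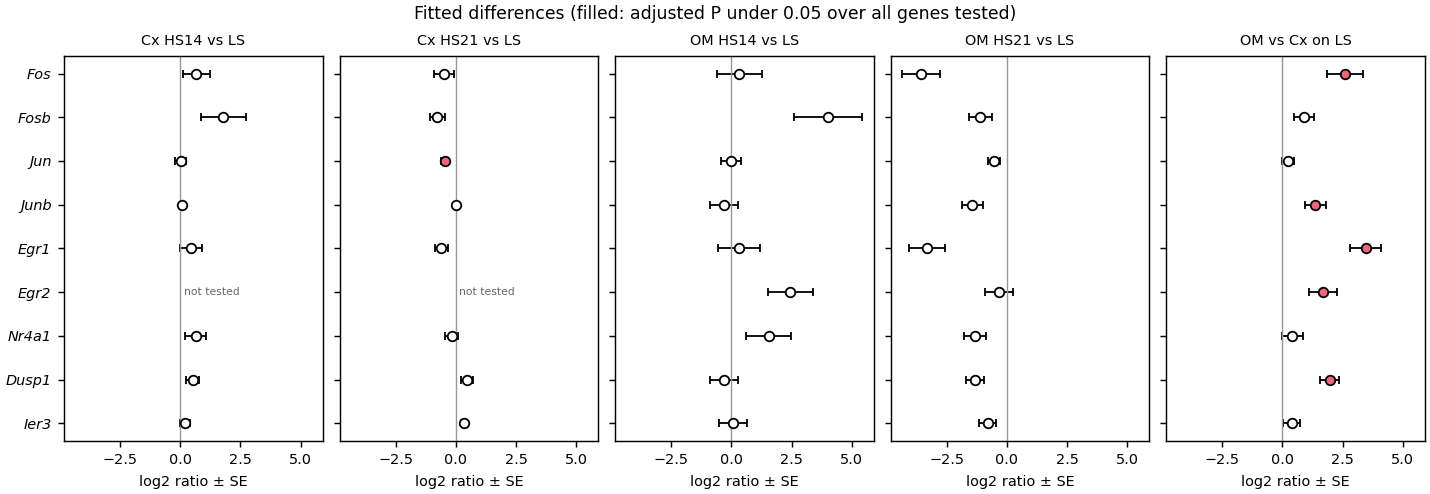
Log2 ratio with its SE (horizontal axes) of each gene in the comparisons of HS14 and HS21 with LS in each tissue and of OM with Cx on LS, 5 libraries against 5. Filled points were called, which are *Jun* in Cx at HS21 and 5 genes in OM against Cx.

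After 14 d of HS diet no member was called in either tissue. In Cx the log2 ratios of the 8 members tested were all above 0 (median 0.47, against -0.0021 over all genes), from 0.012 ± 0.23 for *Jun* to 1.79 ± 0.93 for *Fosb*, and the lowest adjusted *P* was 0.352. *Egr2* did not pass the filter on low counts in either Cx comparison with LS. In Cx 2.33% of all genes were called at HS14, and no member at an unadjusted *P* under 0.05. DESeq2 called no member in this comparison either. The Cx HS14 group was wide because of replicates 7 and 8. *Egr1* had 23.2, 6.11, 65.7, 34.9 and 18.6 CPM in Cx HS14 replicates 6 to 10, so that the group reached both below and above the LS range. *Fosb*, another FOS relative, had 20.7 CPM in replicate 8 and 0.206 to 2.21 in the other libraries of the group. Without replicate 8 its log2 ratio was -0.32, 4 of the 8 members had a ratio below 0 and the members' median was -0.0092, so the shared direction rests on that library.

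In OM at HS14 1 of 14417 genes was called, or 0.00694%, and none of the 9 members by edgeR or DESeq2. Their median log2 ratio was 0.32, against -0.023 over all genes, and it ran from -0.16, with 6 of 9 members below 0, without HS14 replicate 8 to 0.63 without HS14 replicate 7, with 0.028 and 0.059 without LS replicates 2 and 3. At an unadjusted *P* under 0.05, *Fosb* (log2 ratio 4.02 ± 1.40, adjusted *P* = 0.648) and *Egr2* (2.45 ± 0.92, adjusted *P* = 0.693) were higher, where 4.28% of all genes were, and no member was without HS14 replicate 8. *Fosb* had 3.66, 0.896, 195, 17.8 and 1.25 CPM in OM HS14 replicates 6 to 10, and 2.28, 0.940, 1.27, 4.00 and 4.94 CPM in OM LS. Its mean at HS14 therefore rests mostly on replicate 8. *Egr1* had 325, 11.2, 650, 355 and 169 CPM and *Fos* 59.2, 2.15, 95.1, 70.1 and 9.65 CPM in the same 5 libraries. Replicate 7 was the lowest of them for both genes and replicate 8 the highest.

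After 21 d the OM levels of *Egr1*, *Fos* and *Junb* were low and spread less than on LS or at HS14. *Egr1* still ranged 4.81-fold and *Fos* 4.00-fold between the libraries of the group. *Egr1* had 50.8, 11.7, 27.4, 20.5 and 10.5 CPM in OM HS21 replicates 11 to 15. *Fos* had 3.02, 1.54, 3.40, 6.17 and 1.86 CPM, close to the 2.26 to 7.07 CPM of Cx HS21. *Junb* had 58.0, 54.5, 55.6, 66.3 and 61.4 CPM, close to the 55.6 to 73.9 CPM of Cx LS. None of these 5 libraries reached the levels of OM LS replicates 1, 4 and 5 in *Egr1*, *Fos*, *Junb*, *Nr4a1* or *Dusp1*.

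Against LS the fitted log2 ratio in OM at HS21 was below 0 in 9 of 9 members, with a median of -1.32 against -0.031 over all genes, and no member was called by edgeR. It was -3.55 ± 0.78 for *Fos* (adjusted *P* = 0.0747) and -3.32 ± 0.76 for *Egr1* (adjusted *P* = 0.0805). *Junb* (-1.44 ± 0.44), *Nr4a1* (-1.33 ± 0.45), *Dusp1* (-1.32 ± 0.39), *Fosb* (-1.10 ± 0.48) and *Ier3* (-0.79 ± 0.35) followed. These 7 members had an unadjusted *P* under 0.05, in a comparison where 4.29% of all genes were lower at that level, and 0.769% were called in either direction after adjustment. *Jun* (-0.55 ± 0.25) and *Egr2* (-0.34 ± 0.58) had a larger unadjusted *P*. The sign of *Egr2* was not firm, as its fitted ratio was 0.21 without OM LS replicate 5. Its mean log2 CPM with all libraries was 0.0088 higher at HS21 than on LS. No member was without overlap, because OM LS replicates 2 and 3 lay in or near the HS21 range, while 1.05% of 15501 genes were lower without overlap. The exact permutation test gave *P* = 0.0159 for *Fos* and for *Egr1*, where 0.00794 is the smallest value that 5 against 5 allows, and 0.19 after adjustment over the 36 tests of members in the 4 comparisons with LS.

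The call depended on the test and on 1 library. DESeq2's Wald test called 4 members lower, namely *Fos* (adjusted *P* = 3.96e-05), *Egr1* (9.08e-05), *Dusp1* (0.0281) and *Junb* (0.0319), where it called 0.917% of its genes lower. Without OM LS replicate 2, the library with the cortical markers, edgeR called *Fos* (log2 ratio -3.82, adjusted *P* = 0.0492) and *Egr1* (-3.61, adjusted *P* = 0.0413), and 0.21% of all genes were called lower. The adjusted *P* over the 15 alternatives reached 0.198 for *Fos* and 0.213 for *Egr1*.

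The markers of cell types did not stay level in these libraries. In OM LS replicate 5, which had the highest level of its group in 8 of the 9 members, the 4 proximal tubule markers were lowest (479.9 CPM) and *Aqp2* and *Aqp3*, markers of the principal cells of the collecting duct, were highest (1891 CPM). In OM HS14 replicate 8 these sums were 960.4 and 1643 CPM, again the lowest and the highest of the group. The other libraries did not all follow this order. OM HS14 replicate 7, below the group mean in all 9 members, had 3188 CPM of the proximal tubule markers. OM HS14 replicate 6, above that mean in 7 of 9 members, had 3702 CPM of them. The 4 general leukocyte markers summed to 45.99 to 117.1 CPM in OM LS, 137.1 to 162.7 in OM HS14 and 164.4 to 288.9 in OM HS21, and 4 T cell markers to 1.2 to 4.06, 3.93 to 7.41 and 6.55 to 23.8 CPM. The 4 macrophage markers spanned 36.3 to 147.0 CPM in OM LS, 146.8 to 198.1 in OM HS14 and 174.5 to 257.6 in OM HS21, with 1 of them at 0 in some libraries. Mitochondrial genes took 10.99 to 13.4% of the counts in OM LS, 12.5 to 16.7% in OM HS14 and 11.4 to 12.9% in OM HS21, and in OM HS14 they were highest in replicates 10 (16.7%) and 7 (15.6%). Their part in the levels of the immediate early genes was not tested.

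Between 14 and 21 d the OM levels differed in the same direction. The log2 ratio of HS21 to HS14 was -3.88 ± 0.87 for *Fos*, -3.64 ± 0.84 for *Egr1*, -5.12 ± 1.44 for *Fosb*, -2.87 ± 0.88 for *Nr4a1*, -2.78 ± 0.81 for *Egr2* and -1.13 ± 0.41 for *Junb*. Without HS14 replicate 8 the ratio was -2.26 for *Fosb* and -1.74 for *Nr4a1*, and the median of the 9 members was -1.74 in place of -2.78. Adjusted *P* was 0.961 for each, and edgeR called no gene at all in this comparison (0%), with 337 genes higher and 210 lower at an unadjusted *P* under 0.05. These 6 members were among the 210, which are 1.45% of the genes tested. DESeq2 called 20 genes higher and 11 lower (0.0612%), and *Fos* (adjusted *P* = 0.000691), *Egr1* (0.000801) and *Fosb* (0.0289) were 3 of the 11. No member was without overlap, since OM HS14 replicates 7 and 10 had low levels too, against 0.258% of genes lower without overlap. This comparison and that of HS21 with LS share the 5 HS21 libraries.

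In Cx at HS21 a single member was called. *Jun*, the AP-1 subunit with the highest level per length, had 147, 162, 156, 179 and 212 CPM in Cx LS and 128, 94.9, 111, 121 and 171 CPM in Cx HS21. Only the highest HS21 library, replicate 15, reached into the LS range. The log2 ratio was -0.45 ± 0.15 (adjusted *P* = 0.027), or 0.73-fold, and the exact permutation *P* was 0.0317 (0.286 after adjustment over the 36 tests). Of all genes 20.5% were called lower, 18.9% higher and 39.4% in either direction at HS21, so 1 of 8 members is no more than the background of this comparison. Scaling by library totals shifted the median of all genes from 0.0046 to 0.13 and the counts of all genes from 2702 higher and 2936 lower to 4401 and 1653, and *Jun* then had a log2 ratio of -0.32 (adjusted *P* = 0.105). It also lost its call when all 15 Cx libraries entered the fit (adjusted *P* = 0.128) and when any of LS replicates 4 and 5 or HS21 replicates 11, 12, 13 and 14 was left out (log2 ratios of -0.45 to -0.35, adjusted *P* = 0.0543 to 0.0689). Its adjusted *P* ranged from 0.00331 to 0.128 over 15 alternatives. Proximal tubule markers summed to 13932 to 15503 CPM in Cx LS and 8386 to 11436 in Cx HS21, and leukocyte markers to 62.9 to 89.7 and 133.3 to 436.6 CPM. Their part in the level of *Jun* was not tested.

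The other members in Cx at HS21 were not called and did not share a direction, with a median log2 ratio of -0.31 over the 8 members tested (-0.18 over all 9 with no filter on low counts, and -0.021 over 9 without LS replicate 3) and 0.0046 over all genes. *Fosb* (-0.76 ± 0.32, adjusted *P* = 0.0792) had 0.266 to 1.17 CPM against 1.25 to 1.76 CPM in LS and was the only member whose groups did not overlap, at 4 to 18 and 16 to 23 counts a library. Lower levels without overlap were seen in 13.5% of genes. *Egr1* (-0.60 ± 0.27, adjusted *P* = 0.102) and *Fos* (-0.51 ± 0.41, adjusted *P* = 0.356) had ratios below 0. *Ier3* (0.34 ± 0.13, adjusted *P* = 0.0547) and *Dusp1* (0.45 ± 0.24, adjusted *P* = 0.158) had ratios above 0, and *Ier3* was called higher by DESeq2 (adjusted *P* = 0.037) and with library totals (0.0135). *Egr1* was called lower without Cx LS replicate 2 (-0.74, adjusted *P* = 0.0453) or Cx HS21 replicate 11 (-0.88, adjusted *P* = 0.01). Over the 15 alternatives the adjusted *P* reached 0.164 for *Ier3* and 0.311 for *Egr1*. *Junb* (0.005 ± 0.091) and *Nr4a1* (-0.18 ± 0.26) were the other members tested. Against HS14, 8 of 9 members had a log2 ratio below 0 in Cx at HS21 (median -0.47, against 0.014 over all genes, and 5 of 9 under library totals), none was called by edgeR or DESeq2, and 16.2% of all genes were called. *Fosb* alone had an unadjusted *P* under 0.05 there (log2 ratio -2.55 ± 1.02, adjusted *P* = 0.103). Without HS14 replicate 8 its log2 ratio was -0.44, the median of the members was -0.15, with 6 of 9 below 0, and none had an unadjusted *P* under 0.05.

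The Cx and OM libraries of a diet group came from the same 5 rats, and the fit that follows had no term for the rat. Whether the diet effect at HS21 differed between OM and Cx was tested as an interaction over 20 libraries, taken as independent. Its log2 estimate was below 0 in 9 of 9 members (median -1.45, against -0.055 over all genes) and no member was called by edgeR, where 0.665% of genes were. *Dusp1* (-1.78 ± 0.49, adjusted *P* = 0.095), *Egr1* (-2.72 ± 0.81, adjusted *P* = 0.12), *Fos* (-3.05 ± 0.91, adjusted *P* = 0.121), *Junb* (-1.45 ± 0.46, adjusted *P* = 0.149), *Ier3* (-1.13 ± 0.39, adjusted *P* = 0.178) and *Nr4a1* (-1.15 ± 0.54, adjusted *P* = 0.313) had an unadjusted *P* under 0.05, as had 8.99% of genes on that side. Without OM LS replicate 2, edgeR called 5 members lower, *Egr1* (adjusted *P* = 0.0137), *Dusp1* (0.0195), *Junb* (0.0225), *Fos* (0.0227) and *Ier3* (0.0454), and 3.55% of all genes were lower. DESeq2 called *Dusp1* (adjusted *P* = 0.0158), *Fos* (0.0176) and *Egr1* (0.0191) with all 20 libraries, against 1.36% of its genes. The members' adjusted *P* reached 0.169 for *Dusp1* and 0.209 for *Egr1* over 25 alternatives.

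The order of the 6 groups by mean log2 CPM rests on these wide groups. OM HS14 or OM LS ranked first in 8 of the 9 genes and Cx HS21 in *Ier3*. Of the 45 steps between neighbors in these orders, 3 were larger than the SD of both groups of the step. They were the step of *Egr1* from OM LS (7.32 ± 1.71 log2 CPM, SD) to Cx HS14 (4.52 ± 1.25), that of *Ier3* from Cx LS (4.67 ± 0.27) to OM HS21 (4.29 ± 0.15) and that of *Nr4a1* from Cx HS21 (4.37 ± 0.50) to OM HS21 (3.71 ± 0.26). All other neighbors differed by less than the spread of their libraries.

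The spread between libraries of a group was itself large. The SD of log2 CPM about the group means, pooled over the 3 groups of a tissue, was 1.73 for *Egr1* in the OM, against a median of 0.28 for the 1886 genes of like level (within 0.5 log2 CPM), which placed it at percentile 99.8 among them. It was 1.54 for *Nr4a1* (percentile 99.7), 1.72 for *Fos* (99.3) and 1.90 for *Fosb* (98.4). In the Cx *Egr1* had an SD of 0.83 (percentile 99.2) and *Nr4a1* 0.69 (98.8). *Junb* in the Cx was the most even member, with an SD of 0.18 at percentile 81.1, while in the OM its SD was 0.91 (percentile 96.6). *Jun* in the OM had percentile 84.1. These percentiles describe the genes and were not tested.

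**Figure D3:**
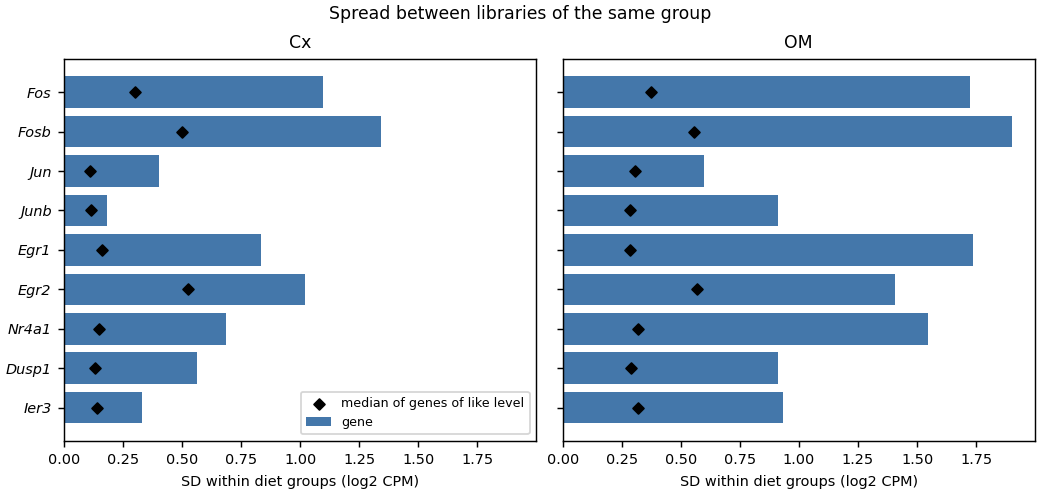
SD of log2 CPM within diet groups (horizontal axes) for each gene as bars, and the median SD of genes of like level as diamonds, for 15 Cx and 15 OM libraries. Every bar lies beyond its diamond, and *Egr1* in OM reaches 1.73 where the diamond stands at 0.28.

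Libraries were high or low in many members at once. After subtraction of the group mean, the 36 pairs of members had a Pearson r above 0 in each tissue, from 0.319 to 0.849 (median 0.625) over the 15 Cx libraries and from 0.592 to 0.965 (median 0.852) over the 15 OM libraries. OM HS14 replicate 8 was above its group mean in 9 of 9 members, by 2.12 on average on the log2 scale, and OM HS14 replicate 7 was below it in all 9, at -2.05. OM HS14 replicate 10, the library of lowest depth and lowest share of bases on exons, was at -1.46. On LS, OM replicate 5 stood at 1.27 and OM replicates 2 and 3 at -1.23 and -1.03. In OM HS21 the deviations ran only from -0.46 to 0.32. In Cx the extremes carried the same numbers, 1.35 for HS14 replicate 8 and -1.21 for HS14 replicate 7. These r values share the depth and tissue make-up of each library.

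**Figure D4:**
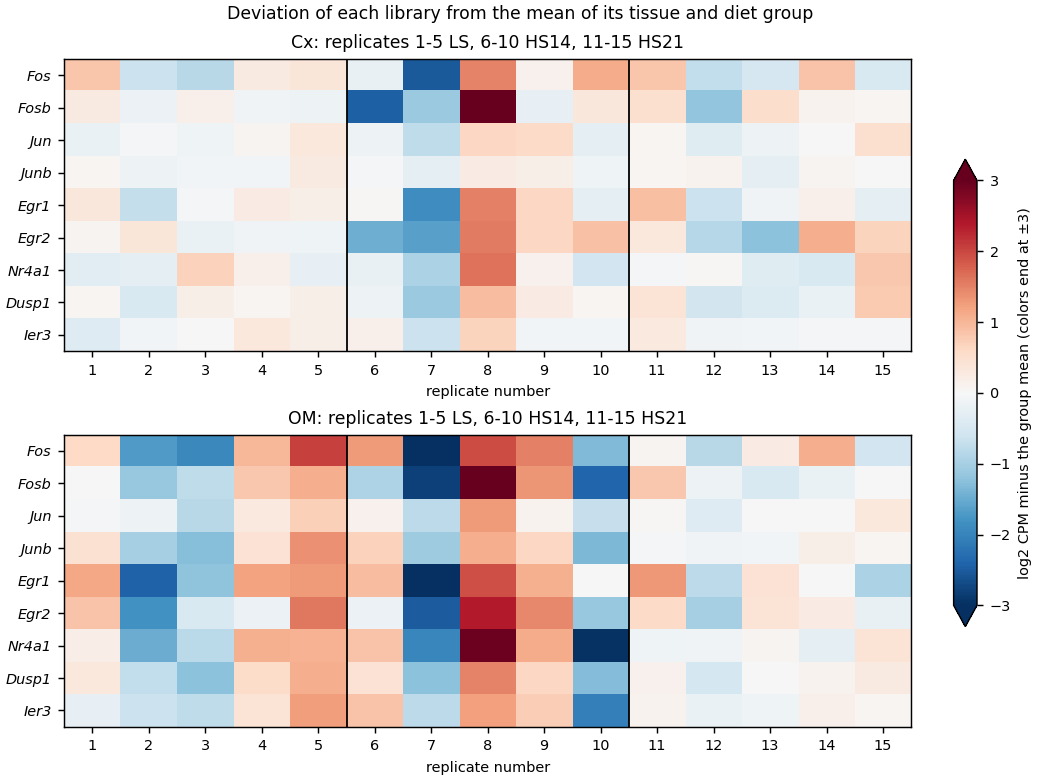
Log2 CPM minus the mean of the tissue and diet group, as color from -3 (blue) to 3 (red), for each gene (rows) and replicate number (columns) in Cx and OM. In the OM all 9 genes lie on the same side of 0 in columns 2, 3, 5, 7 to 10 and 12, and the other columns mix both colors. Column 8 is red and column 7 blue in both tissues.

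Cx and OM libraries of the same number deviated together in several genes. Other genes took part in this. Over 14068 genes, 13 of 15 Cx libraries correlated best with the OM library of their own number within the diet group. How many other genes reach the r values below was not computed, so the relation is not shown to be particular to the members. For *Egr1* Pearson's r over the 15 numbers was 0.897 and Spearman's rho 0.904, with a permutation *P* of 1e-05, the smallest that 100000 draws within diet groups can give, and 9e-05 after adjustment over the 9 members. Without numbers 7 and 8, the farthest in the Cx, r was 0.809. *Jun* had r = 0.784 and rho = 0.786 (permutation *P* = 0.00334 and 0.00274, adjusted 0.015 and 0.0123), and 0.628 without numbers 7 and 8. *Junb* had r = 0.741 and rho = 0.689 (permutation *P* = 0.00788 and 0.0184, adjusted 0.0236 and 0.0415), and 0.619 without 5 and 7. *Fos* (r = 0.707, rho = 0.607, permutation *P* = 0.015 and 0.0354, adjusted 0.0337 and 0.0469) and *Dusp1* (r = 0.6, rho = 0.554, permutation *P* = 0.0224 and 0.0364, adjusted 0.0404 and 0.0469) fell back to 0.406 and 0.286 without numbers 7 and 8, so that for these genes the relation rests largely on those numbers. *Nr4a1* (r = 0.657), *Ier3* (0.583), *Fosb* (0.685) and *Egr2* (0.461) had an adjusted permutation *P* of Pearson's r over 0.05, from 0.0763 to 0.208. By rank, *Ier3* had rho = 0.718 and *Nr4a1* rho = 0.632, with adjusted permutation *P* of 0.0415 and 0.0469. Pearson's r of *Ier3* was 0.425 without numbers 7 and 8, and that of *Nr4a1* was 0.435 without 8 and 15. For *Fosb* and *Egr2* rho was 0.261 and 0.307, with adjusted permutation *P* of 0.434 and 0.384.

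**Figure D5:**
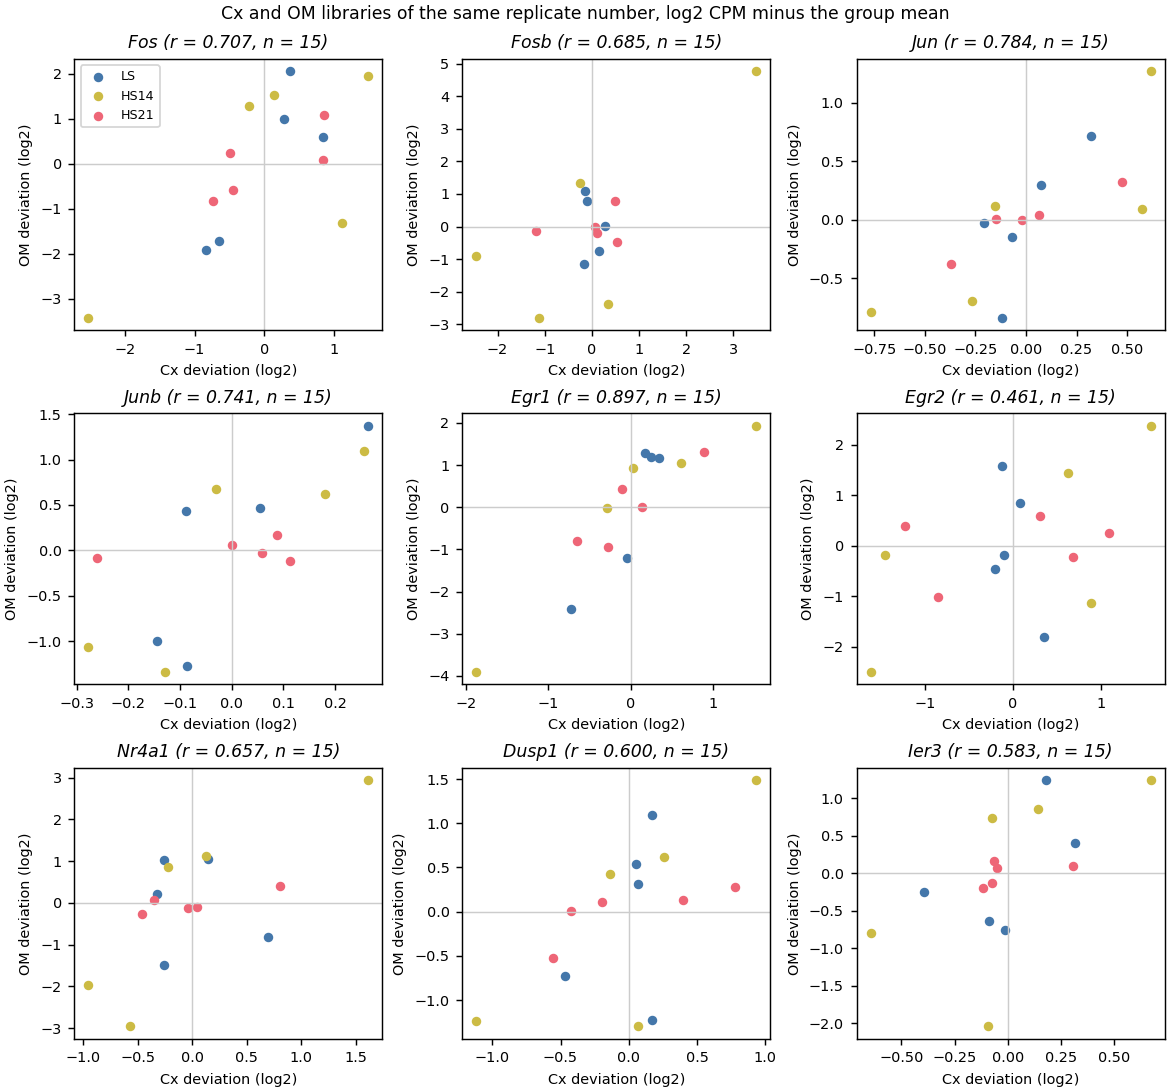
Deviation from the group mean in log2 CPM in the Cx (horizontal axes) and in the OM library of the same number (vertical axes), 15 numbers for each gene, with Pearson's r. *Egr1* has the highest r, 0.897, and number 8 at HS14 lies at the upper right in each panel.

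Genes of like pattern were sought in each tissue by the r of their deviations with the mean deviation of the 9 members, over 15 libraries. In the OM they were *Gem* (r = 0.947), *AC120246.2* (0.944), *Arc* (0.931), *Btg2* (0.929) and *Crem* (0.911), and in the Cx *Nxt1* (0.888), *Cyr61* (0.864), *Btg2* (0.848), *Cyyr1* (0.821) and *Rap1a* (0.816). *Btg2*, an antiproliferative early response gene, was in both sets and spanned 15.7 to 59.4 CPM in the Cx and 18.04 to 220 CPM in the OM. *Arc* and *Cyr61* are immediate early genes as well, and *Crem* encodes a factor of the CREB family. Of 46 other immediate early and primary response genes in the table, 43 in the Cx and 44 in the OM were high enough to be read, with a median r of 0.504 and 0.705, against 0.011 and 0.079 over all genes. They made up 9 and 14 of the 50 genes of highest r. The 11 heat shock genes had a median r of 0.296 and 0.074, and none was among the 50 in either tissue.

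The other early response genes were read in the same comparisons. In Cx at HS14, 3 of 43 were called higher, *Socs3* (log2 ratio 1.45 ± 0.27, adjusted *P* = 0.0204), *Nfkbiz* (0.72 ± 0.15, adjusted *P* = 0.0374) and *Ier5* (0.46 ± 0.11, adjusted *P* = 0.0463), where 1.14% of all genes were higher. In Cx at HS21, 14 of 43 were called higher and 3 lower, where 18.9% and 20.5% of all genes were (4401 and 1653 genes with library totals, in place of 2702 and 2936), with *Socs3* (1.59 ± 0.30), *Cebpd* (1.46 ± 0.42) and *Cebpb* (1.32 ± 0.29) the largest. *Socs3* restrains cytokine signaling, and the C/EBP factors act in the acute phase response. Between HS14 and HS21 in Cx, 1 rose, *Cebpb* (1.12 ± 0.31), and 2 fell, *Trib1* (-1.09 ± 0.14) and *Zfp36l1* (-0.28 ± 0.07), where 6.5% and 9.69% of all genes rose and fell (935 and 1395 genes, and 2084 and 644 with library totals). In the OM none of 44 was called at HS14 or HS21 by edgeR. At an unadjusted *P* under 0.05, 8 were higher and 1 lower at HS14, where 617 and 209 of 14417 genes were. At HS21 5 were higher and 3 lower at that level, where 1012 and 625 of 14555 genes were. Against Cx on LS, 12 were higher and 2 lower in OM, where 21.3% and 19.5% of all genes were (5546 and 1842 genes with library totals, in place of 3051 and 2794), and those with the largest ratios were *Errfi1* (-2.65 ± 0.37), *Trib1* (-2.32 ± 0.15) and *Dusp2* (1.45 ± 0.44). *Trib1* was the only gene of this list called in the interaction (1.17 ± 0.21, adjusted *P* = 0.0138).

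Of 27 genes of the route to the promoters (MAP kinases, RSK kinases, serum response factor, its partners and CREB factors), 2 were called higher and 8 lower in Cx at HS21, where 39.4% of all genes were called. They included *Rps6ka3* (-0.55 ± 0.09), which encodes a kinase of CREB, and *Elk3* (0.40 ± 0.09), a partner of serum response factor. None was called in Cx at HS14 or in the OM comparisons of diets by edgeR. At an unadjusted *P* under 0.05, 4 were higher and 2 lower in Cx at HS14, where 1284 and 1178 of 14181 genes were. At that level none differed in OM at HS14, and 1 was higher and 2 lower in OM at HS21. There 1012 and 625 of 14555 genes were higher and lower. Between HS14 and HS21 in Cx, 5 of the 27 were called lower, where 9.69% of all genes were. Of 11 heat shock genes, 3 were higher and 5 lower in Cx at HS21, where 18.9% and 20.5% of all genes were. Their median log2 ratio was -0.33. The 3 higher genes were *Hspb8* (1.20 ± 0.23), *Hspb1* (0.68 ± 0.17) and *Hspa1b* (0.66 ± 0.21). In Cx at HS14 only *Hspb8* was called (0.76 ± 0.16, adjusted *P* = 0.0383), where 2.33% of all genes were. None was called in the OM comparisons of diets. Against Cx on LS, 2 were higher and 6 lower in OM, where 21.3% and 19.5% of all genes were.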

How the data were processed

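Poly(A)-selected RNA from the Cx and OM was sequenced by the study as non-directional paired-end libraries. The authors aligned the reads to Ensembl Rnor_6.0 with HISAT2 2.0.5 and counted them per gene with featureCounts 1.5.0-p3, and StringTie 1.3.3b is also named in the submitters' processing notes. The counts they deposited are whole and not normalized, and the deposited gene length is in bases. Deposited FPKM values and the columns of the authors' DESeq2 comparisons (group means, log2 fold changes, p-values and adjusted p-values) were not used.

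Samples were grouped by their labels. Counts were tested with edgeR 4.0.16 in R 4.3.3 (filterByExpr, TMM, glmQLFit and glmQLFTest), from the libraries compared, with Benjamini-Hochberg adjustment over all genes tested at 0.05. Alternatives were library totals, DESeq2 size factors, no filter, DESeq2 1.42.0, all libraries of a tissue, a replicate block and leaving out each library. Log2 CPM used a prior count of 2. Single genes were compared by two-sided exact permutation over 252 regroupings. Correlations used 100000 two-sided permutations within diet groups and scipy 1.17.1.

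On simulated counts with 200 genes changed by 1 on the log2 scale, edgeR recovered 74.0% in Cx HS21 against LS and 52.5% in OM HS21 against LS over 14299 and 14555 genes, with 1.99% and 3.67% of its calls false. For DESeq2 these were 79.0% and 73.0%, with 10.2% and 23.2% false. For the interaction (15194 genes) edgeR recovered 40.5% and DESeq2 50%, with 2.41% and 11.5% of their calls false. The changed genes were drawn at random and no other gene differed. These rates therefore need not hold for the members, whose spread was wider than that of most genes of like level. Nor need they hold in Cx at HS21, where 39.4% of genes were called.

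The members and gene lists were chosen with earlier results of these data known. Named genes outside the members are the 3 called genes of each list whose log2 ratio was farthest from 0 in a comparison, and the 5 of highest r in each tissue with a mean of at least 1 CPM. A gene that this rule names is not reported here. Of the listed symbols *Zfp36l2*, *Mcl1*, *Hspe1* and *Mkl2* (also *Mrtfb*) were not analysed here, and *Mkl1*, *Cyr61* and *Ctgf* were read under these older names. No pair of libraries within a group was a copy, since the 60 pairs compared differed per gene by at least 7.29 times the counting noise. Errors between libraries include counting error, and with non-directional libraries reads of overlapping antisense genes cannot be told apart.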

Additional observations from a re-analysis of the deposited data

Results flagged for a closer look

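In 3 of the 54 sets of 5 libraries (9 genes in 6 groups), the highest or lowest library stood farther from its nearest neighbor than Dixon's limit of 0.71 of the range allows, measured in log2 CPM. *Fosb* in Cx HS21 replicate 12 was 0.266 CPM, with the next library at 0.816. *Ier3* in Cx HS21 replicate 11 was 39.8 CPM, with the next at 31.1. *Dusp1* in Cx LS replicate 2 was 22.7 CPM, with the next at 32.7. Chance flags about 1 in 20 such sets.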

How the results depend on the processing

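The count of members called kept within 1.5 times its value in 109 of 130 alternatives, was higher in 11 and lower in 10. In Cx at HS21 it was 1, and it was 2 with DESeq2 size factors, 3 with DESeq2's test, 0 with all 15 Cx libraries in the fit and 0 to 2 with 1 library left out (2 without LS replicate 2 or HS21 replicate 12, 0 without LS replicate 5 or HS21 replicate 14). In OM at HS21 it was 0, and it was 4 with DESeq2 and 0 to 2 with 1 library left out. In Cx at HS21 against HS14 it was 1, *Fosb*, with all 15 libraries, and in OM at HS21 against HS14 it was 3 with DESeq2. In the interaction it was 3 with DESeq2 and 0 to 5 with 1 library left out, with 1 call (*Dusp1*) without OM LS replicate 3. In OM against Cx on LS it was 5 and ran from 3 to 6 with 1 library left out. It was 3 without Cx LS replicate 1, 2, 3 or 4 or OM LS replicate 1 or 5. The causes were not tested.

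With the replicate block, which pairs Cx and OM libraries of 1 number, 3 members were called higher in OM on LS, as *Junb* and *Egr2* were not called (adjusted *P* = 0.0645 and 0.116), and the block changed no other call of a member. Deviations of equal numbers correlated over 0.1 in 12 of 15 cases (-0.084 to 0.508), and 13 Cx and 12 OM libraries correlated best with their own number, which is a hint from the data that equal numbers belong together. The numbers were not used as pairs, because no source states it and 3 of the 15 cases lay at or below 0.1.

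Of 1140 recomputed log2 ratios of members, 46 turned sign, none of them of a called gene. With DESeq2 size factors *Jun* in OM at HS14 was 0.0015, and with library totals *Junb*, *Egr2* and *Dusp1* in Cx at HS21 against HS14 were 0.039, 0.015 and 0.063. With 1 library left out the log2 ratios in Cx at HS14 ran from -0.32 to 2.10 (*Fosb*), -0.15 to 0.17 (*Jun*), -0.079 to 0.69 (*Egr1*) and -0.023 to 0.85 (*Nr4a1*). In Cx at HS21 they ran from -0.031 to 0.075 (*Junb*) and -0.43 to 0.036 (*Nr4a1*). In OM at HS14 they ran from -0.079 to 1.01 (*Fos*), -0.46 to 0.20 (*Jun*), -0.59 to 0.14 (*Junb*), -0.16 to 0.63 (*Egr1*), -0.24 to 0.49 (*Ier3*) and -0.80 to 0.0043 (*Dusp1*). *Egr2* in OM at HS21 ran from -0.60 to 0.21, and in Cx at HS21 against HS14 *Egr2* ran from -0.46 to 0.37, *Ier3* from -0.0068 to 0.33 and *Dusp1* from -0.30 to 0.22. *Ier3* in OM against Cx ran from -0.049 to 0.55 and *Jun* in the interaction from -0.26 to 0.11. Spreads and correlations kept their size within 1.5 times and their sign under the other scaling and prior count. At the spread of the OM groups a log2 ratio of -3.55 (*Fos* at HS21) did not pass adjustment, and *Egr2* and *Fosb* in Cx rest on few counts.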
